A study of Mus musculus with 12 samples.

Results

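The starts of 6 genes of POU classes 3 and 4 lay inside broad stretches of H3K27me3 in immortalized mouse embryo fibroblasts (iMEF cells), and in several of them the mark ran far beyond the gene. All 6, Pou3f1, Pou3f2, Pou3f3, Pou4f1, Pou4f2 and Pou4f3, carried a site at or within 1 kb of a transcription start site (TSS), and sites lay over at least 50% of each gene body. The members were chosen by name, and a site belonged to a gene when it overlapped the gene body, as annotated by GENCODE on GRCm38, or the 20 kb on either side. Of 101389 sites in the list, 41 lay in these 6 windows, and no site was shared between windows.

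ChIP-seq had been carried out for H3K27me3 (histone H3 trimethylated at lysine 27). Clone NG3 of the iMEF cells, a line grown from 1 clone, lacks exon 4 of both endogenous Ash2l alleles and lives on human ASH2L fused to FKBP12F36V and delivered by a lentivirus. ASH2L is a subunit of the complexes that methylate lysine 4 of histone H3, and dTAG directs the fusion protein to degradation. Cells left untreated and cells given dTAG for 16, 24 or 48 h gave 2 H3K27me3 libraries each, 8 in all. Another 4 libraries were inputs, 2 without dTAG and 2 after 48 h of it. Every group, the untreated one included, carried the Ash2l deletion and the fusion construct. The list joins the sites of all samples and gives only their positions, so it holds no value per library. A site, or part of its width, may therefore come only from cells given dTAG, and the positions do not describe untreated cells alone. Read depth is unknown from it, no replicate error could be given, and no time point could be compared with another. What follows is a description of where sites lay, without a test.

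POU factors are transcription factors that bind DNA through a POU-specific domain and a POU homeodomain, and the classical motif of the family is an octamer. Class 3 and class 4 factors are known for their roles in the nervous system and the sense organs, where they act during the specification and the maturation of neurons, glia and sensory cells. H3K27me3 is placed by Polycomb repressive complex 2, and genes for developmental regulators that a cell does not use are common carriers of the mark, often around CpG islands (CGIs). Fibroblasts do not belong to the lineages for which these genes are best known.

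The promoter sequences show how different in CpG content the starts were that all lay inside sites. Promoters of 300 bp, from 250 bp before the gene start to 50 bp after it, came from RefSeq on GRCm38.p6, and 4 of the 6 genes were matched (Pou3f2, Pou3f3, Pou4f1 and Pou4f2). The promoter richest in CpG and one of the poorest are printed 5′ to 3′, with each CpG in capitals. The first, of Pou4f1, is chr14:104467950-104468249 on the minus strand, and the second, of Pou3f3, is chr1:42695518-42695817 on the plus strand.
Pou4f1: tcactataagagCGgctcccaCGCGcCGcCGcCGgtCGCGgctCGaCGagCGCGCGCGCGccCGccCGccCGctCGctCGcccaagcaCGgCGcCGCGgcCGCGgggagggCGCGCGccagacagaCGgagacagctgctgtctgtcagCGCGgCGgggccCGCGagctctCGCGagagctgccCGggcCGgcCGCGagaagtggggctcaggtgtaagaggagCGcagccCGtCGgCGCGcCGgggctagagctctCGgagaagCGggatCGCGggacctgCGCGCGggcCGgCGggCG
Pou3f3: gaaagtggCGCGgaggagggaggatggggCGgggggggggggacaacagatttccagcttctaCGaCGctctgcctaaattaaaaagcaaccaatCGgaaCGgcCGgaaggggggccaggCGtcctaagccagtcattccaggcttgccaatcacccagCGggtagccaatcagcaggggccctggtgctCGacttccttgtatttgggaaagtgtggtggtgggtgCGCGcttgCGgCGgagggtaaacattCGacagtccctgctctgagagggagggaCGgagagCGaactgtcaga

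The Pou4f1 promoter held 57 CpG and had a GC content of 78.3%, and only 0.152% of the 32851 promoters of the same length held at least as many CpG. The Pou3f3 promoter held 18 CpG at a GC content of 60.3%, which 29.7% of promoters reached or passed. Pou4f2 also had 18 CpG, at a GC content of 69.7%, and Pou3f2 had 24 at 67.7%. The median over all promoters was 7 CpG. All 4 promoters were covered by a site over their whole length, whether rich or moderate in CpG. On either strand, the octamer ATGCAAAT was in none of the 4, and it was in 1.74% of all promoters. TATAAA was in none of them either, against 13.6% of all promoters. CCAAT matched 2 times in the Pou3f2 promoter and 3 times in that of Pou3f3, with no match in those of Pou4f1 and Pou4f2. It was in 37.4% of all promoters. GGGCGG, the core of a GC box, matched 5 times in Pou3f2, 1 time in Pou3f3, 2 times in Pou4f1 and 5 times in Pou4f2, and was in 35.7% of all promoters. None of these motifs contains another of them.

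The share of all 21755 protein-coding genes whose TSS had a site within 1 kb was 26.9%, set against 6 of 6 here. All 6 also had at least 50% of the gene body covered, which held for 10.1% of all protein-coding genes. At least 90% of the body was covered in 4 of the 6, against 4.23% of all genes. In 5 of the 6 the gene start lay inside a site of at least 10 kb, against 4.78% of all genes. These genes are short and each has a CGI close to a TSS. They were therefore also set beside the 3071 protein-coding genes of at most 10 kb with a CGI within 1 kb of a TSS. Of those, 24.1% had a site at or within 1 kb of a TSS, 16.4% had at least 50% of the body covered, 10.5% had at least 90% covered, and 7.72% began inside a site of at least 10 kb. The 6 genes thus stood above both backgrounds by each of the 4 counts, and no test was made of the difference.

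**Figure D1:**
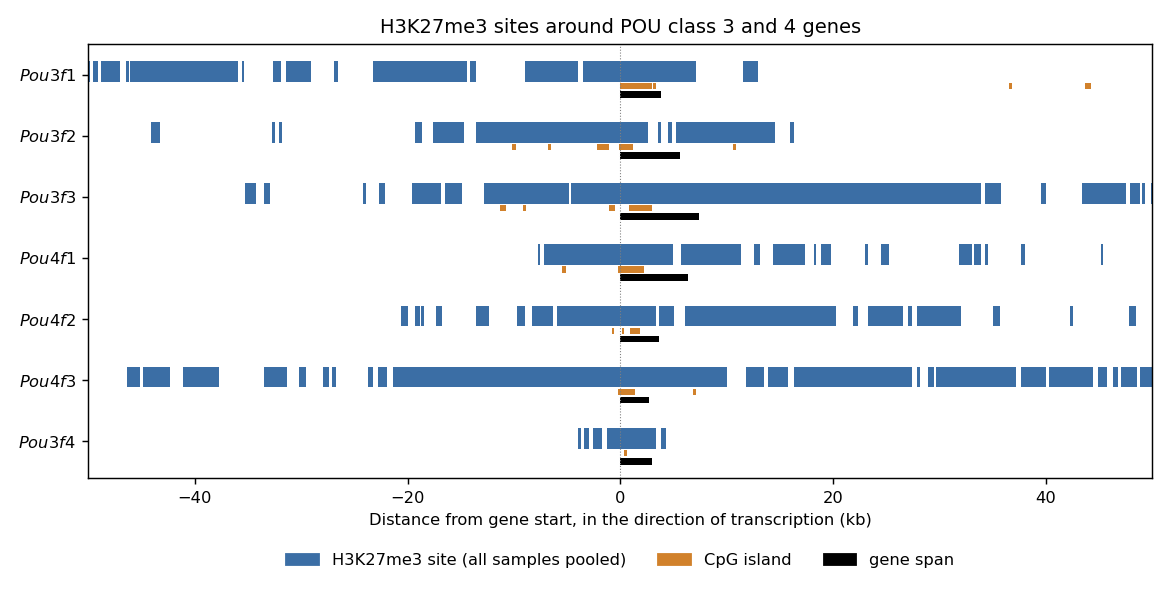
H3K27me3 sites (blue), CpG islands (orange) and gene spans (black) from 50 kb upstream to 50 kb downstream of the gene start, in the direction of transcription, for the 6 genes and for Pou3f4, the remaining class 3 gene. The start of each gene lies inside a site, and the site over the start is widest at Pou3f3 (38542 bp) and narrowest at Pou3f4 (4636 bp).

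The class 3 genes have 1 exon each. Pou3f1 (Oct6), known for its role in the myelination of peripheral nerves by Schwann cells, lies at chr4:124656807-124660655 on the plus strand and was covered over 100% of its 3849 bp. The site over its start ran from 124653250 to 124663898, a width of 10649 bp that only 2.08% of all sites reached or passed. It began 3557 bp before the gene start and ended 3243 bp past the gene end. The cover around Pou3f1 was one-sided. In the 20 kb upstream, 73.6% of bases were covered, against 23.3% downstream. From 10 to 60 kb downstream of the gene end no base was covered. Upstream cover was not continuous. It was 22.6% from 10 to 15 kb before the start, 27.7% from 25 to 30 kb and 100% from 40 to 45 kb. The next protein-coding gene on that side, 3100002H09Rik, starts 46004 bp from the Pou3f1 start, with a site over its own start.

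Pou3f2 (Brn2), a neurogenic factor used in the reprogramming of fibroblasts to neurons, lies at chr4:22482780-22488366 on the minus strand. Its body had the lowest cover of the 6, at 65.5% of 5587 bp, in 4 separate sites. The site over the start was nevertheless wide, at 16161 bp, and 0.909% of all sites were at least as wide. It extended 13532 bp upstream of the start but only 2628 bp into the gene. Upstream cover was 85.5% and downstream cover 46.8%. Pou3f2 therefore resembled Pou3f1 in having the larger share upstream, but its cover stopped on both sides: past 20 kb upstream no 5-kb bin exceeded 15.3%, and past 15 kb downstream every bin to 60 kb was at 0%.

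Pou3f3 (Brn1), which acts in the cerebral cortex and in the kidney, lies at chr1:42695768-42703176 on the plus strand and was covered over 100% of its 7409 bp. Its start lay in the widest site of the 41, from 42691144 to 42729685. That site measured 38542 bp and ranked 108 in the whole list. It ended 26509 bp past the gene, so that the downstream 20 kb was covered over 100%, and upstream cover was 84.6%. Pou3f3 was the class 3 gene whose mark leaned downstream.

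Among the class 4 genes, Pou4f1 (Brn3a), a factor of sensory neurons of the dorsal root and trigeminal ganglia, lies at chr14:104461676-104467999 on the minus strand. Its 6324 bp with 3 exons were covered to 88.9%. The site over the start was 12139 bp wide, and 1.59% of all sites were at least as wide. Pou4f1 had the lowest flank cover of the 6, with 37.0% upstream and 53.2% downstream. Upstream cover ended sharply, with 100% in the first 5 kb, 48.1% in the next and 0% from 10 to 60 kb.

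Pou4f2 (Brn3b), needed for retinal ganglion cells, lies at chr8:78433010-78436645 on the minus strand and has 2 exons. It was covered over 92.3% of its 3636 bp. Its window was the most broken up, with 12 sites between 332 and 14188 bp. The site over its start was 9264 bp wide, just under 10 kb, and 2.68% of all sites were at least as wide. The widest site of its window was a separate downstream one, which lay from 6091 to 20278 bp past the gene start. Accordingly, downstream cover, at 82.3%, exceeded upstream cover, at 56.2%.

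Pou4f3 (Brn3c), a factor of the hair cells of the inner ear, lies at chr18:42394539-42397249 on the plus strand, has 2 exons and is the shortest of the 6 at 2711 bp. Its body and its upstream 20 kb were both covered over 100%, and downstream cover was 86.5%. The site over its start measured 31375 bp, and 0.199% of all sites were at least as wide. Downstream cover stayed dense past the window. In the 5-kb bins from 20 to 45 kb past the gene end, between 72.3% and 94.3% of bases were covered. With sites less than 3000 bp apart joined, the stretch over the Pou4f3 start measured 88522 bp, the longest of the 6, followed by 59965 bp at Pou3f3, 45520 bp at Pou4f2, 35626 bp at Pou3f2, 27518 bp at Pou4f1 and 16093 bp at Pou3f1.

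**Figure D2:**
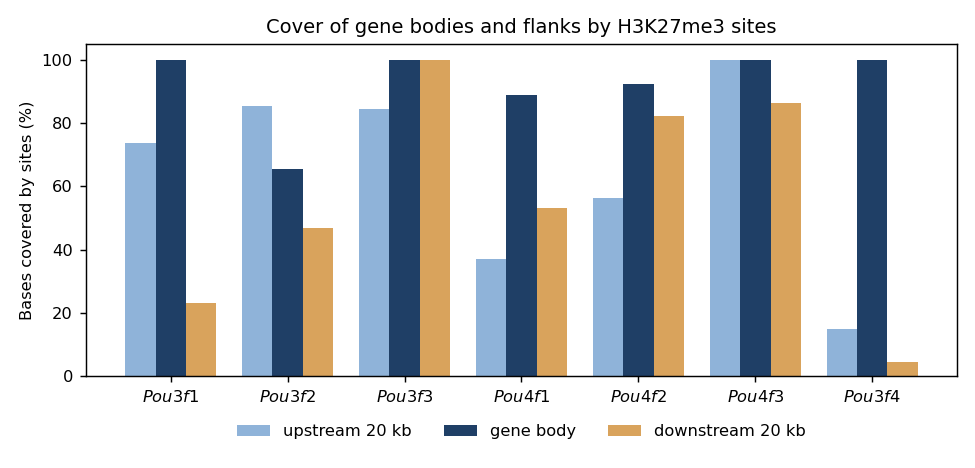
Share of bases under H3K27me3 sites, in percent, in the 20 kb upstream, the gene body and the 20 kb downstream of the 6 genes and of Pou3f4; there is 1 pooled list, so the bars have no error. Gene bodies lie between 65.5% and 100%, whereas the flanks range from 4.62% to 100%.

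Over the 6 genes, the median body cover was 96.1% and the median cover of the 2 flanks together was 67.7%, with a range from 45.1% at Pou4f1 to 93.3% at Pou4f3. The 3 class 3 and the 3 class 4 members spanned much the same range, with median flank covers of 66.1% and 69.2%. Pou3f4, the class 3 gene outside the 6, had a flank cover of 9.79%. Within 20 kb, upstream cover was the larger in 3 of the 6, namely Pou3f1, Pou3f2 and Pou4f3, and downstream cover in the others. With flanks of 50 kb upstream cover was the larger in 2, and Pou4f3 was no longer among them. There was thus no shared side. The genes suited to compare the flanks with are those whose bodies are covered as well. In the 503 short CGI genes with at least 50% of the body covered, which include the 6, median flank cover was 42.1% (quartiles 21.8% and 66.6%), and 52.7% of these genes had more cover upstream. Within these 503 genes, 8.35% reached the flank cover of Pou4f3, 8.95% that of Pou3f3, 23.9% that of Pou4f2, 25.6% that of Pou3f2, 43.3% that of Pou3f1 and 47.7% that of Pou4f1. All 6 were above the median of the 503, with Pou3f1 and Pou4f1 close to it. The median width of the site over the gene start was 14150 bp for the 6 genes and 9304 bp for the 503.

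**Figure D3:**
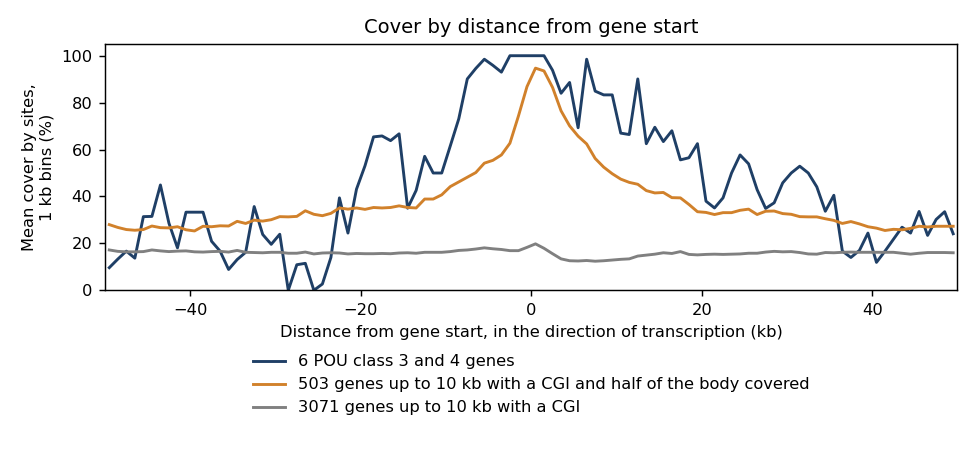
Mean cover by H3K27me3 sites in 1-kb bins, in percent, against distance from the gene start in the direction of transcription, for the 6 genes, for the 503 short CGI genes with at least 50% of the body covered, and for all 3071 short CGI genes. The 6 genes stay at 100% from 3 kb before to 2 kb after the start, while the 503 peak at 94.7% in the first bin past the start.

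The averaged profile had a broad plateau around the start. From 3 kb upstream to 2 kb downstream of the start every base of all 6 genes was covered, and each bin from 7 kb upstream to 3 kb downstream was at least 50% covered in all 6. At 7 to 6 kb upstream, mean cover was 94.6% for the 6 genes and 50.2% for the 503 covered genes. At 25 to 24 kb upstream it was 2.68% for the 6 and 31.8% for the 503, so the mean of the 6 fell below that of the comparison genes there. A mean of 6 genes moves with each of them, and the upstream rise at 44 to 43 kb, to 44.9%, was at a place where 3 of the 6 were at least 50% covered.

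The 41 sites were between 200 and 38542 bp wide with a median of 1669 bp, where the median of the whole list was 676 bp. Of them 7, or 17.1%, measured at least 10 kb, against 2.35% of the list, and these 7 made up 63.4% of the summed width of the 41 sites, parts beyond the windows included, against 24.8% for such sites in the list. Narrow sites under 500 bp were 22.0% of the 41 and 38.5% of the list. A few wide sites thus made up most of the summed width. The list as a whole covered 6.75% of the genome outside assembly gaps.

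Where a gene body was not wholly covered, the uncovered bases lay in the 3′ untranslated region (UTR). In all 6 genes the 5′ UTR, the coding sequence and any intron were covered over 100%. The 5 gaps on the gene bodies were in the 3′ UTRs of 3 genes, Pou3f2, Pou4f1 and Pou4f2, whose 3′ UTRs were covered to 52.1%, 75.9% and 83.8%, and none of the 2910 uncovered bases lay elsewhere. Among other short CGI genes with 50% to under 100% of the body covered and an annotated 3′ UTR, 74 of 224, or 33.0%, had all their uncovered bases in the 3′ UTR. The gaps were short, and none of the 5 was left when sites less than 1000 bp apart were joined. At Pou3f2 they measured 408, 644 and 874 bp, at Pou4f1 703 bp, and at Pou4f2 298 bp, of which 281 bp lay on the gene.

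These gaps were poor in G and C. At Pou3f2 their GC contents were 32.6%, 29.7% and 32.6%, at Pou4f1 it was 29.4% and at Pou4f2 27.5%. The coding sequences of the same genes had 65.8%, 72.2% and 65.0%, and the covered bases of the 3′ UTRs had 40.4%, 40.6% and 40.0%. Each of the 5 gaps was thus poorer in G and C than the covered rest of its 3′ UTR. Over the whole list, the 49152 gaps under 1000 bp between neighbouring sites had a median GC content of 39.8% (quartiles 36.0% and 44.4%), and the sites one of 47.7% (quartiles 45.6% and 50.2%). All 5 gaps lay below the lower quartile of such gaps. The same order was seen across the windows: covered bases had the higher GC content at all 6 genes, with the smallest difference at Pou3f1, 52.7% against 50.5%, and the largest at Pou3f3, 47.7% against 32.2%. Uncovered bases were also masked as repeats more often than covered ones at all 6 genes. The difference was smallest at Pou3f1, 18.4% against 18.2%, and largest at Pou3f2, 56.7% against 17.6%. The list gives no reads, and the part of base composition or of repeats in where sites were called was not tested.

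**Figure D4:**
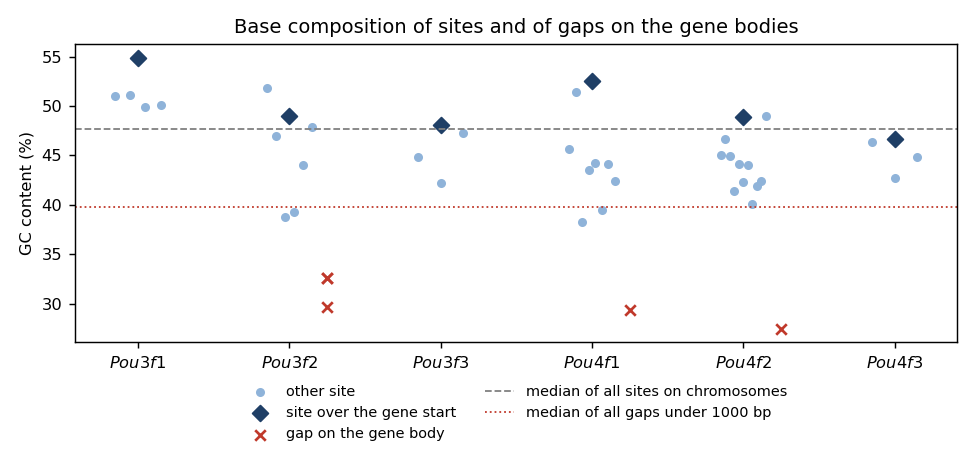
GC content, in percent, of each site in the 6 windows (dots), of the site over each gene start (diamonds) and of the 5 gaps on the gene bodies (crosses), with the medians of all sites (dashed, 47.7%) and of all gaps under 1000 bp (dotted, 39.8%). The crosses lie between 27.5% and 32.6%, under every site shown.

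All 18 CGIs in the 6 windows were covered over their whole length, as were 22.2% of the 16208 CGIs of the genome and 71.0% of the 1089 CGIs in the windows of the other covered short CGI genes. They numbered 5 at Pou3f2, 4 at Pou3f3, 3 at Pou4f2 and 2 each at Pou3f1, Pou4f1 and Pou4f3. The longest, of 2978 bp, was at Pou3f1, whose body had the highest GC content of the 6, 63.9%. Of the bases outside CGIs, 93.4% were covered at Pou4f3, 93.0% at Pou3f3, 70.2% at Pou4f2, 63.4% at Pou3f2, 49.2% at Pou3f1 and 47.9% at Pou4f1. The number of CGIs did not follow this order, since Pou4f3 and Pou4f1 had 2 each and stood at its 2 ends.

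Of the 12 protein-coding genes next to the members, 3 had a site no more than 1 kb from a TSS, a share near the 26.9% of all protein-coding genes. Among the 12, 8 have a CGI within 1 kb of a TSS, and none of these 8 (among them Utp11, Mms22l, Fbxl4, Mrps9, Rnf219, Rbmxl1 and Rbm27) had a site no more than 1 kb from a TSS. Of the 4 without a CGI, 3 had such a site, namely 3100002H09Rik upstream of Pou3f1, Ednrb downstream of Pou4f1 and Ttc29 downstream of Pou4f2, whereas Tmem182 had none. The site nearest the Mrps9 start lay 1159 bp away, just past the limit. Among the 3071 protein-coding genes of at most 10 kb with a CGI the share was 24.1%, and no share is given here for all genes without a CGI. Only 2 neighbours come within 20 kb of a member. Rnf219, a ubiquitin ligase gene, comes to within 9537 bp upstream of Pou4f1, and the last site on that side ended 1767 bp before it. Utp11, a ribosome biogenesis gene, comes to within 17505 bp downstream of Pou3f1, and the last site ended 8398 bp before it. Neither gene had a site on its body.

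Non-coding genes overlap or adjoin some members, and a pooled list without strand cannot assign a site to one of them. Gm2164 runs antisense across the start of Pou3f1, and 58.2% of it was covered. AC122898.1 overlaps Pou3f3 on the same strand and was covered to 83.8%. Next to Pou3f3, Pantr2 was covered over 100% and Pantr1 over 17.8%, and Gm30731 next to Pou3f2 was covered over 100%. D130079A08Rik, downstream of Pou4f1, was covered to 7.51%.

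Pou3f4 (Brn4), the remaining class 3 gene, known for deafness linked to the X chromosome, had the same body cover with little spread. Its 2928 bp in 1 exon were covered over 100%. The site over its start, however, was 4636 bp wide, upstream cover was 15.0%, downstream cover was 4.62%, and no base from 5 to 60 kb on either side was covered. It has 1 CGI of 257 bp, shorter than the longest CGI of each member. Among the 503 covered short CGI genes, 88.3% had at least its flank cover. Full body cover thus occurred with very different flanks within 1 POU class.

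The other POU genes were covered less. Counting Pou3f4, 6 of 9 had a site no more than 1 kb from a TSS, 3 had at least 50% of the body covered, and their median body cover was 7.09%. Pou2f2, an octamer factor of B cells, had the highest cover after Pou3f4, with 78.3% of a long body and a site of 45446 bp over its start. Pou2f3, which specifies tuft cells, was covered to 55.4%. Pou5f1, the pluripotency factor Oct4, had a site no more than 1 kb from a TSS but only 6.50% of its body covered. Pou6f1 stood at 7.35%, and the bodies of Pou1f1, Pou2f1 and Pou5f2 at 0%. Of these 9 genes, 5 have a CGI within 1 kb of a TSS, where all 6 members do.

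Proneural bHLH genes, which act with POU factors in neurogenesis, looked like the members over the body. Of 10 genes, 9 had a site no more than 1 kb from a TSS and 8 had at least 50% of the body covered, and the median body cover was 100%. Atoh1, Atoh7, Neurod2, Neurog1, Neurog2 and Neurog3 were among those covered over 100% of the body, while Neurod1 was covered to 72.5%, Neurod6 to 37.9% and Neurod4 to 0%. Their median flank cover was 49.8%, against 67.7% for the 6 POU genes, with a range that overlapped theirs: Atoh7 had 5.04% downstream, and Neurog1 had 100% upstream.

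Of 23 partners and targets of class 3 and 4 factors, 18 had a site no more than 1 kb from a TSS and 15 had at least 50% of the body covered, with a median of 75.4%. Tlx3 and Isl2, homeobox genes of sensory and motor neurons, were covered over 100%, as were Gfi1, needed by hair cells, and Lhx3 and Avp. Egr2, the myelination gene downstream of Pou3f1, had 0% of its body under called sites, as did Sox11 and Oxt. Of 15 fibroblast genes, only Pdgfra had a site no more than 1 kb from a TSS, with 1.76% of its body covered, and of 10 housekeeping genes none had one. Col1a1, Col1a2, Col3a1, Fn1, Vim and Thy1, which mark fibroblasts, were at 0%.

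**Figure D5:**
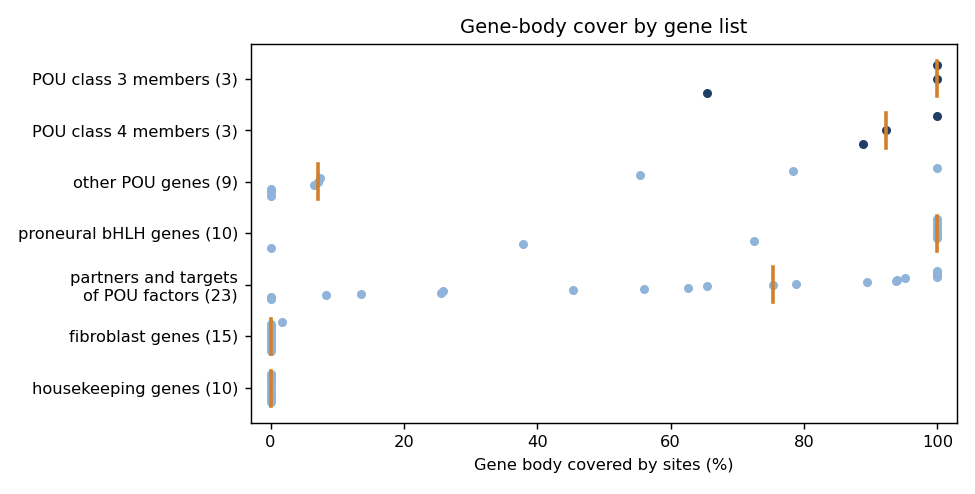
Share of the gene body under H3K27me3 sites, in percent, for each gene (dots, spread vertically only to be seen) of the 2 member classes and of 5 other gene lists, with the median of each list (orange bar) and the number of genes in brackets. The class 3 and 4 members and most proneural genes lie at the right, and the fibroblast and housekeeping genes at or near 0.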

How the data were processed

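H3K27me3 ChIP-seq was carried out in 8 libraries, with 4 input libraries. The authors trimmed reads (Trim Galore), aligned them to mm10 with BWA, filtered alignments (samtools), merged replicates with Picard and called broad peaks with MACS. Samples were also scaled by the authors to the lowest coverage within an experiment; whether peaks were called on such files, versions, cutoffs and the rule that joined samples are not given in the sources used here. A broad peak caller sets the smallest width of a site and the distance over which stretches are joined, so the breaks between sites depend on it. The deposited list holds chromosome, start and end in base pairs, for all samples together, with no count, score or fold. Starts were read as counted from 0, from the smallest width of 200 bp, and are printed counted from 1. Columns of single samples left unused numbered 0.

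Cover is the share of bases under sites. A site was assigned on an overlap of at least 1 bp. Genes came from GENCODE M21, 3′ UTRs from the transcript with the longest coding sequence, and sequence from GRCm38.p6. CGIs were segments with a minimum length of 200 bp, a minimum GC content of 50% and a minimum observed/expected CpG of 0.6, found by scoring each CpG with 17 and other bases with -1 in sequence without repeats; 16208 were found. Python 3.11.15 and numpy 2.4.6 were used, and the scripts were tested on simulated data. The members and gene lists were chosen with earlier results of these data known. Named were the members, the other POU genes, the genes next to or overlapping a member, and, of each other list, up to 6 genes with the highest body cover; the other genes named in the lists (for instance those at 0%) were chosen after their values were seen. Some genes of these lists count in the totals but are not reported here by name. Alternatives were minimum widths, joining of sites, flank size, TSS window and the counting of starts.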

Additional observations from a re-analysis of the deposited data

How the results depend on the processing

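Of 40 values recomputed under other settings, 27 stayed the same, where a count was taken as the same within 1.5 times and a median only if equal as printed, and 13 moved. The 41 sites in the windows became 24 without sites under 1000 bp, 22 with sites less than 1000 bp apart joined and 10 with those less than 3000 bp apart joined, and they numbered 21 with flanks of 10 kb and 95 with flanks of 50 kb. Joining sites at 1000 or 3000 bp brought median body cover from 96.1% to 100%, and left 0 of the 5 gaps on the gene bodies (a count added after seeing the data). Median flank cover, 67.7%, was 65.6% and 63.0% without sites under 500 and 1000 bp, 71.0% and 83.5% with joining at 1000 and 3000 bp, 89.6% with flanks of 10 kb and 38.5% with flanks of 50 kb. The count of 6 genes with a site within 1 kb of a TSS did not move under any of its 7 alternatives. The count with at least 50% of the body covered stayed at 6, and was 4 at the 90% limit. Upstream cover was larger in 2 instead of 3 genes with joining at 3000 bp or flanks of 50 kb. Counting starts from 1 moved none of the values recomputed under it, and the count of gaps was not among them. No paired analysis was possible because the list joins all samples. The list gives no depth, so the limit of detection of a site could not be computed from it.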
